A study of Mus musculus with 6 samples.

Results

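Oxidative phosphorylation is carried out by protein complexes I to V of the inner mitochondrial membrane, and the genes described here are the nuclear genes for their subunits. A gene was taken as a member when a probe set named that symbol alone in the platform annotation and the symbol began with Ndufa, Ndufb, Ndufc, Ndufs, Ndufv, Uqcr, Cox4i, Cox5, Cox6, Cox7, Cox8 or Atp5, or was Sdha, Sdhb, Sdhc or Sdhd. Assembly factors named Ndufaf were left out. This gave 82 genes with 169 probe sets, of 18193 genes on the array. There were 36 genes of complex I, 4 of complex II, 8 of complex III, 17 of complex IV and 17 of complex V. The probe set with the highest mean signal over the 6 arrays stood for each gene, and 33 of the genes had 1 probe set.

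RNA from mouse skin was hybridised to 1 Affymetrix array per sample, with 3 wild-type samples and 3 knock-in samples of the genotype code KA, both on a C57BL/6 background. The labels used here name neither the altered gene nor age, sex, body site or treatment, and do not state that the samples came from separate animals, so p-values measure no more than how these samples spread. The X-inactivation transcript Xist averaged 29.7 ± 2.44 on wild-type arrays and 3730 ± 282 on knock-in arrays (SD, n = 3), and the Y-linked gene Eif2s3y 687 ± 42.6 and 5.04 ± 0.544. Sex and genotype therefore cannot be told apart in any comparison below.

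Complex I passes electrons from NADH to ubiquinone, and complex II does so from succinate. Complex III passes them on to cytochrome c and complex IV to oxygen, and complex V uses the proton gradient they build to make ATP. Most subunits are made in every tissue, but complex IV has subunits encoded by separate genes in heart and skeletal muscle: Cox6a2, Cox7a1 and Cox8b take the place of the body-wide Cox6a1, Cox7a2 and Cox8a. Mouse skin can carry a sheet of skeletal muscle, the panniculus carnosus, beneath the dermis.

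Markers of the cell types in skin were read in the same fit as the subunits. In that fit 14.8% of all genes tested passed as higher in knock-in and 16.3% as lower (limma adjusted p below 0.05). Keratinocyte markers summed to between 23804 and 27344 in wild-type and between 28924 and 36803 in knock-in, and 2 of 4 rose, Krt14 and Krt5. Of 3 dermal fibroblast markers 1 fell, Col1a1, a call that 4 of the 6 fits with an array left out did not keep (those without replicate 2 or 3 of either group). All 3 neutrophil markers on the array rose, with sums from 498 to 731 in wild-type and from 14212 to 18330.1 in knock-in. Of 3 white fat markers matched (5 were listed) and 3 smooth muscle markers 0 passed in limma, and 0 had an unadjusted p under 0.05. The white fat marker Adipoq passed as lower without wild-type replicate 1 (-0.65, limma adjusted p = 0.0277). Ucp1, which defines brown fat, was below the filter at means of 6.92 and 2.71. The other brown fat marker, Cidea, had 0.57 ± 0.26 and passed as higher with array weights alone (0.79, adjusted p = 0.0416, between 0.0416 and 0.306 over the alternatives). The summed signal of 11 fast skeletal muscle markers was 44728, 68798 and 51486 in wild-type and 47033, 27424 and 27311 in knock-in. Wild-type replicate 2 and knock-in replicate 1 stood above the rest of their groups, so results on muscle isoforms are also given without each of these arrays.

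Subunit transcripts as a group differed little between the genotypes. Of the 82 genes, 79 were tested because 3 or more arrays gave them a signal higher than that array's median, and 3 (Ndufb4, Cox4i2 and Cox7b2) were too dim. Of the 79, 6 were lower in knock-in, 1 was higher and 72 did not pass (limma, Benjamini-Hochberg adjusted p below 0.05 over 11670 genes). The 7 genes that passed were 8.86% of the subunits tested, while 31.2% of all genes tested passed. By direction, 7.59% of subunits passed as lower, against 16.3% of all genes, and 1.27% as higher, against 14.8%. Subunits have bright probe sets, and of the 645 genes brighter than the median subunit 39.8% passed.

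The differences of the subunits were small. All 3 knock-in arrays lay on one side of all 3 wild-type arrays for 35 of the 79 subunits, or 44.3%, beside 47.1% of all genes tested. Differences are of log2(signal + 16), knock-in minus wild-type. Their median was -0.07 for subunits and -0.02 for all genes. Without regard to sign their median was 0.13 for subunits and 0.24 for all genes, and 71 of the 79 lay below 0.3 in size. Subunits also varied little within a group: the median standard deviation on the log2 scale was 0.0771 for the 73 that are neither muscle nor other tissue-restricted isoforms, and 0.156 for all genes. For 65 of the 72 subunits that did not pass, the 95% interval of the log2 difference lay within ±0.5. The exceptions were Ndufa13, Ndufa4l2, Cox6a2, Cox6b2, Cox7c, Cox8b and Cox8c. The count of subunits that fell was 3 without wild-type replicate 3, and the count that rose was 3 without wild-type replicate 1.

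**Figure D1:**
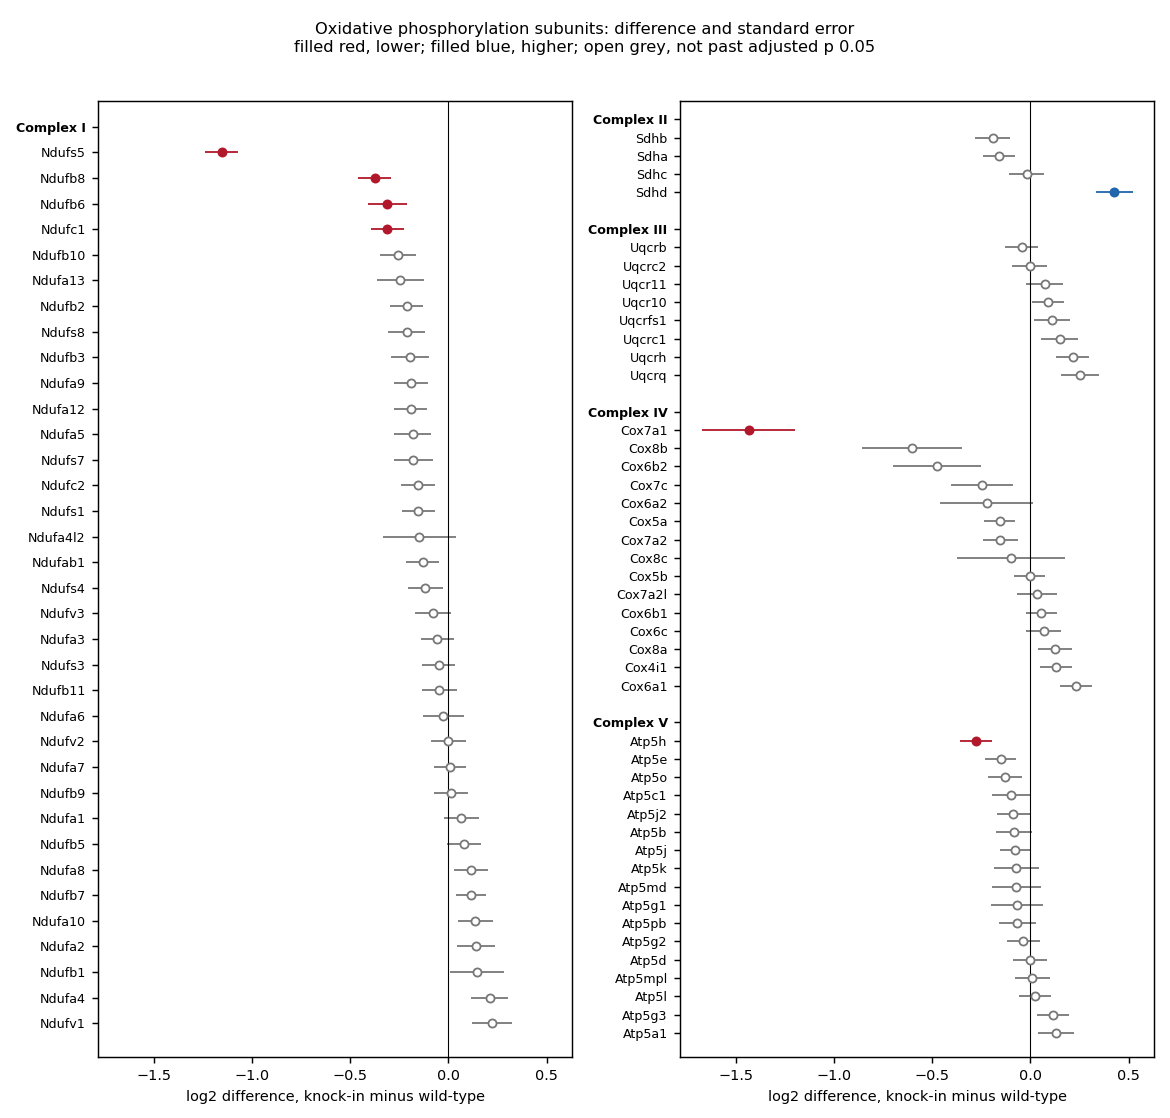
Each point is the log2 difference, knock-in minus wild-type, of 1 of the 79 subunit genes tested, with its standard error, ordered within each complex; filled points passed the test. Cox7a1 at -1.44 and Ndufs5 at -1.16 lie farthest left, and Sdhd at 0.43 is the filled point to the right of 0.

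Complex I held 4 of the 6 subunits that fell, and 31 of its 35 tested genes did not pass. The 4 were 11.4% of its tested genes, beside 16.3% of all genes called lower. Its median log2 difference was -0.12. Ndufs5, an accessory subunit on the intermembrane-space side of the complex, differed most. Its probe set 1416494_at gave 1343, 1263 and 1220.1 on the wild-type arrays and 586, 561 and 544 on the knock-in arrays. The groups lay far apart with little spread in either, and the mean signal was 2.26-fold lower in knock-in. The log2 difference was -1.16 ± 0.08 (SE, limma adjusted p = 5.24e-05, between 3.10e-05 and 0.00137 over the alternatives), and the gene passed under all 19 alternatives. Ndufs5 had 1 probe set of its own, so every alternative used 1416494_at and none could test the choice of probe set. A further probe set, 1416495_s_at, is annotated to both Ndufs5 and the pseudogene Ndufs5-ps and is no member. It gave 1224 ± 58.6 in wild-type and 1029 ± 44.5 in knock-in (SD, n = 3), a log2 difference of -0.25, in the same direction but smaller.

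The promoter of Ndufs5 is shown because it had the largest difference among body-wide subunits, and that of Sdhd because it was the subunit that passed in the other direction. The windows, from RefSeq (GRCm38.p6), run from 250 bases before to 50 bases after the annotated start and are written 5′ to 3′ on the gene's strand. They are chr4:123718137-123718436 on the minus strand for Ndufs5 and chr9:50603800-50604099 on the minus strand for Sdhd. Capitals mark matches on either strand to TGCGCA (the core letters of the NRF1 site), CCGGAAG (an ETS site, bound by GABPA among others), ATGGCGG (YY1), AAGGTCA (oestrogen-related receptors), the TATA box letters TATAAA, the NF-Y letters CCAAT and the MEF2 motif.
Ndufs5: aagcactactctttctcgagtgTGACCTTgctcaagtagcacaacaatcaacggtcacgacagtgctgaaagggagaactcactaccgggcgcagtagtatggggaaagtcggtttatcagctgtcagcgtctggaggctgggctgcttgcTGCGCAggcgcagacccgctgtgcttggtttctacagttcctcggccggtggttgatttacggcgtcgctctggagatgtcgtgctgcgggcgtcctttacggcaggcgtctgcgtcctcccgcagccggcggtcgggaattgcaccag
Sdhd: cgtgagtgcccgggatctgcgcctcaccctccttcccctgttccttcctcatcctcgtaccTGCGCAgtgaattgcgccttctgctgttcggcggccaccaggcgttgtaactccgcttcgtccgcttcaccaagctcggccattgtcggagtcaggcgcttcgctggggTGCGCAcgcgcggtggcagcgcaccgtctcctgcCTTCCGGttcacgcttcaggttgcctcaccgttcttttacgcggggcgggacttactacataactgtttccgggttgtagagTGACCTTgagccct

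NRF1 and GABPA are known as activators of many respiratory chain genes. The letters TGCGCA were found in 17 of the 67 subunit genes with a RefSeq window (25.4%) and in 8.06% of 27025 windows of all genes in the table. CCGGAAG was found in 16 of the 67 (23.9%) and in 9.12% of all, AAGGTCA in 11.9% and 4.66%, and ATGGCGG in 11.9% and 4.19%. The median GC content was 58.7% in subunit windows and 52.7% in all, and its part in these shares was not tested. The Ndufs5 window held 1 match to TGCGCA and 1 to AAGGTCA. The Sdhd window held 2 matches to TGCGCA, 1 to CCGGAAG and 1 to AAGGTCA. Whether any of these motifs bears on either difference was not tested.

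The other complex I subunits that fell are accessory subunits of the membrane arm. Ndufb8 (1448198_a_at) gave 1519, 1476 and 1573 in wild-type and 1116, 1171 and 1223 in knock-in, with a log2 difference of -0.38 ± 0.08 (SE, limma adjusted p = 0.00913). Ndufc1 (1448284_a_at) gave 2636, 2657 and 2636 against 1977, 2172 and 2241, a difference of -0.31 ± 0.08 (limma adjusted p = 0.0232). Ndufb6 (1434056_a_at) gave 1393, 1597 and 1692 against 1205, 1331 and 1219, a difference of -0.31 ± 0.10 (limma adjusted p = 0.0424). For each of these genes every knock-in array lay below every wild-type array.

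The second probe sets of these genes differed in what they showed. For Ndufc1, 1416285_at gave means of 1244 and 1053, again with no overlap. For Ndufb6, 1434057_at gave 1182 and 1176, a log2 difference of -0.01. For Ndufb8, 1458404_at was dim and ran the other way, at 44.5 and 54.8, and with the mean over probe sets Ndufb8 had -0.07 (adjusted p = 0.587, between 0.00353 and 0.587 over the alternatives). Ndufc1 lost its call when wild-type replicate 2 (0.0540), wild-type replicate 3 (0.0693) or knock-in replicate 1 (0.0721) was left out, and its adjusted p lay between 0.0114 and 0.0899 over the alternatives. Ndufb6 kept its call, among the arrays left out in turn, without wild-type replicate 1 alone, and its adjusted p lay between 0.0162 and 0.186 over the alternatives. The count of complex I genes that fell was thus 2 in each of the fits that left out 1 of the 3 arrays named for Ndufc1.

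Catalytic and core subunits of complex I did not pass. Ndufv1, which binds NADH and the flavin, gave 1038 ± 123 in wild-type and 1210.3 ± 40.5 in knock-in (SD, n = 3), a log2 difference of 0.22 ± 0.10 (limma adjusted p = 0.128). It passed as higher without wild-type replicate 1 (0.0389, between 0.0389 and 0.406 over the alternatives). The iron-sulphur subunits Ndufs1, Ndufs7 and Ndufs8 had log2 differences of -0.15, -0.18 and -0.21. The other Ndufs8 probe sets had differences from -0.18 (1423908_at) to 0.19 (1434212_at), each with overlap. Ndufs8 passed as lower after quantile normalization (limma adjusted p = 0.0372, between 0.0372 and 0.965 over the alternatives). Ndufv2, an iron-sulphur subunit and the member of the complex with the largest p, had 0.00 ± 0.09. Ndufa4, now counted as a subunit of complex IV, gave 2359 ± 193 and 2726 ± 107 with no overlap, a difference of 0.21 ± 0.09 that did not pass (limma adjusted p = 0.118). The X-linked Ndufa1 and Ndufb11 had 0.07 and -0.05. The probe set listed for Ndufb4 alone was below the filter, at 18.7 and 9.42. Of those it shares with Ndufb4b and Ndufb4c, 1428075_at gave 1531 and 1350.1 and 1428076_s_at gave 1197 and 1205.

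In complex II the membrane anchor Sdhd (1428235_at), whose promoter is printed above, was the subunit that rose. Its signals were 570.4, 563 and 480.2 in wild-type and 744, 712 and 723 in knock-in, with no overlap. The log2 difference was 0.43 ± 0.10 (SE, limma adjusted p = 0.0104). The gene's second probe set, 1437489_x_at, had lower signals and ran the other way, at 197 ± 5.93 and 159 ± 28.9 (SD, n = 3), a log2 difference of -0.30 with overlap. With the mean over probe sets the difference was 0.06 (adjusted p = 0.649, between 0.00475 and 0.649 over the alternatives).

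The other 3 subunits of complex II did not pass. Sdha, the flavoprotein that oxidises succinate, gave 1275, 1293 and 1174 in wild-type and 1106, 1111 and 1119 in knock-in, a log2 difference of -0.16 ± 0.08 (limma adjusted p = 0.162). Sdhb, the iron-sulphur subunit, gave 1845, 1758 and 1652 against 1429, 1614 and 1549.8, a difference of -0.19 ± 0.09 (limma adjusted p = 0.133). Both were lower on every knock-in array than on any wild-type array. Sdhb passed after quantile normalization (0.0477, between 0.0477 and 0.333 over the alternatives). The other anchor, Sdhc, gave means of 708 and 699 and a difference of -0.02 ± 0.09. Its second probe set, 1435986_x_at, was lower in knock-in with no overlap, at 360.1 and 299 (-0.26).

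In complex III 0 of 8 subunits passed in limma, beside 31.2% of all genes, and 2 had an unadjusted p under 0.05. The median log2 difference was 0.10, and 6 of the 8 lay above 0. Uqcrq, a small subunit beside cytochrome b (1430326_s_at), gave 1702, 1514 and 1381 in wild-type and 1765, 1875 and 1830.2 in knock-in, a log2 difference of 0.25 ± 0.10 (limma adjusted p = 0.0804). It passed without wild-type replicate 1 (0.0345) and with array weights (0.0350), with adjusted p between 0.0345 and 0.480 over the alternatives. Without probe sets ending in _s_at or _x_at a dim probe set stood for Uqcrq and the sign turned (-0.21, adjusted p = 0.313). Uqcrh, the hinge protein beside cytochrome c1 (1453229_s_at), gave 2759, 2923 and 2628 against 3209, 3336 and 3104, a difference of 0.22 ± 0.08 (limma adjusted p = 0.0858). Neither gene's groups overlapped on these probe sets. A second Uqcrh probe set, 1452133_at, gave 2151 and 2309 (0.11) with overlap. The core proteins Uqcrc1 and Uqcrc2 had 0.15 ± 0.09 and 0.00 ± 0.09, and the Rieske iron-sulphur protein Uqcrfs1 0.11 ± 0.09. A second Uqcrc2 probe set, 1435757_a_at, was lower in knock-in with no overlap, at 1278 and 1108 (-0.20).

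In complex IV 1 of 15 tested subunits fell (6.67%, beside 16.3% of all genes called lower), the muscle isoform Cox7a1 (1418709_at). It gave 288, 466 and 318 on the wild-type arrays and 169, 116 and 85.4 on the knock-in arrays. Every knock-in array lay below every wild-type array, and the mean signal was 2.90-fold lower in knock-in. The log2 difference of -1.44 ± 0.24 was the largest in size among the 79 subunits (SE, limma adjusted p = 0.00266, between 0.00160 and 0.0118 over the alternatives), and the gene passed under all 19 alternatives, with differences from -1.66 to -1.17. Cox7a1 had 1 probe set, so none of the alternatives could test the choice of probe set. Without knock-in replicate 1 the difference was -1.66, and without wild-type replicate 2 it was -1.24. In whole skin, fewer muscle fibres and less of this RNA per fibre cannot be told apart.

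Cox8b and Cox6a2, the other muscle isoforms, did not pass. Cox8b (1449218_at) gave 521, 932 and 686 in wild-type and 653, 374 and 373 in knock-in. Knock-in replicate 1 lay among the wild-type arrays and the other 2 below them, and the difference was -0.60 ± 0.25 (limma adjusted p = 0.103). It passed without knock-in replicate 1 (-0.86, adjusted p = 0.0229) and without wild-type replicate 1 (-0.81, 0.0484), with adjusted p between 0.0229 and 0.278 over the alternatives. Without wild-type replicate 2 it was -0.40 and did not pass (0.270). Cox6a2 (1417607_at) gave 668, 1044 and 829.6 in wild-type and 1043, 592 and 583 in knock-in. Here knock-in replicate 1 lay beside the highest wild-type array, and the difference was -0.22 ± 0.24 (limma adjusted p = 0.510, between 0.0775 and 0.870 over the alternatives). It was -0.49 without knock-in replicate 1 (0.0775) and -0.06 without wild-type replicate 2 (0.870). A second Cox6a2 probe set, 1457633_x_at, also had wild-type replicate 2 and knock-in replicate 1 as the highest arrays of their groups, at 145, 357 and 258 against 338, 120.3 and 149.

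**Figure D2:**
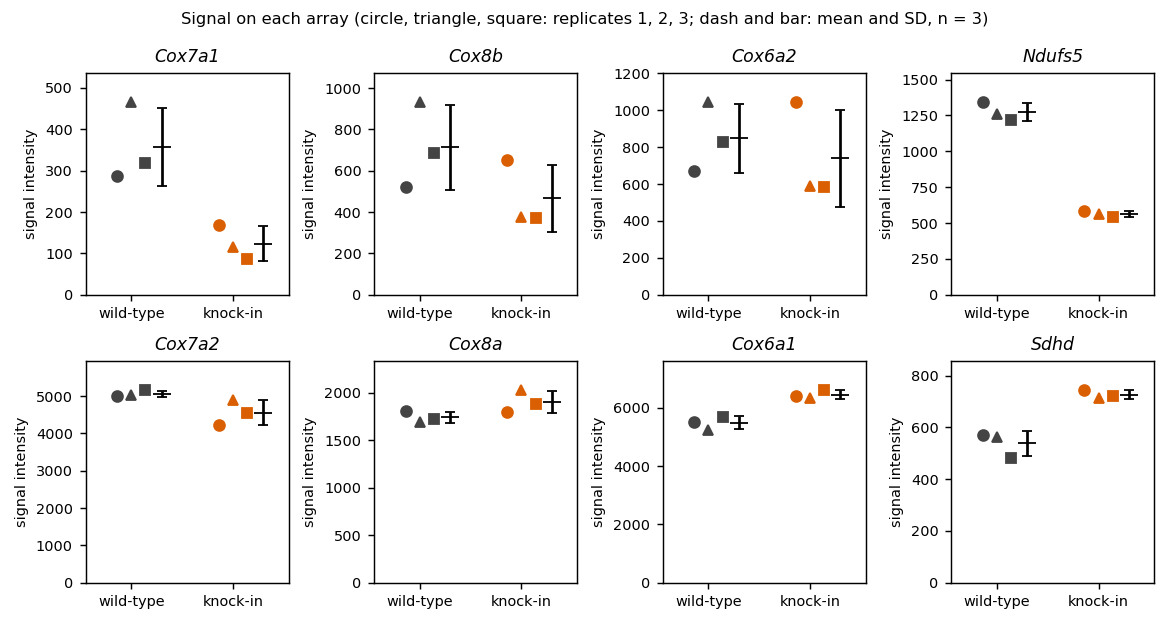
Signal intensity on each array, on axes that start at 0, for the muscle isoforms Cox7a1, Cox8b and Cox6a2 above their body-wide partners, and for Ndufs5 and Sdhd; circles, triangles and squares are replicates 1, 2 and 3, and bars the mean and SD (n = 3). Knock-in replicate 1 is the highest knock-in array for all 3 muscle isoforms, at 169 for Cox7a1, 653 for Cox8b and 1043 for Cox6a2.

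The body-wide partners did not pass. Cox7a2 (1416970_a_at) gave 5009, 5014 and 5159 in wild-type and 4228, 4901 and 4541 in knock-in, a log2 difference of -0.15 ± 0.09. Cox8a (1416112_at) gave 1807, 1694 and 1720.1 against 1796, 2028 and 1880.3, a difference of 0.13 ± 0.09; averaged with its other probe sets, 1 of them dim, it had -0.12. Cox6a1 (1417417_a_at) gave 5525, 5239 and 5692 against 6409.7, 6319 and 6602, a difference of 0.23 ± 0.08 with no overlap (limma adjusted p = 0.0652). A second Cox6a1 probe set, 1417418_s_at, gave 2568 and 2654 (0.05) with overlap. Cox6a1 passed as higher after quantile normalization (0.0233, between 0.0233 and 0.310 over the alternatives).

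Each muscle isoform was then set against its partner within each array, and only the change of the ratio is read. The log2 ratio of Cox7a1 to Cox7a2 was -3.79 ± 0.358 in wild-type and -5.08 ± 0.499 in knock-in (SD, n = 3), a difference of -1.28 with no overlap. The two-sided exact permutation p was 0.1, the smallest that 3 arrays against 3 allow. The log2 ratio of Cox8b to Cox8a differed by -0.73 (exact permutation p = 0.2) and that of Cox6a2 to Cox6a1 by -0.45 (exact permutation p = 0.3). Ratios among the muscle isoforms themselves were added once these values were known, so their p-values only describe the arrays. The log2 ratio of Cox6a2 to Cox7a1 was 1.22 ± 0.108 in wild-type and 2.43 ± 0.196 in knock-in (SD, n = 3, exact permutation p = 0.1), and that of Cox8b to Cox7a1 was 0.955 ± 0.127 and 1.79 ± 0.198 (exact permutation p = 0.1). Neither overlapped between the groups, and knock-in replicate 1, at 2.52 and 1.86, lay with the other knock-in arrays. Without knock-in replicate 1 the differences of the 3 ratios to body-wide partners were -1.56 for Cox7a1, -1.03 for Cox8b and -0.73 for Cox6a2. Without wild-type replicate 2 they were -1.08, -0.50 and -0.26. The exact permutation p-values were also adjusted over these 5 ratios, the added ones included. They were then 0.167 for the 3 ratios that hold Cox7a1, 0.25 for Cox8b to Cox8a and 0.3 for Cox6a2 to Cox6a1.

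Skeletal muscle markers moved beside these isoforms. Of 11 fast fibre markers 6 fell (54.5%, beside 16.3% of all genes called lower) and 5 did not pass. The calcium buffer Pvalb fell (-3.40 ± 0.22), the fast myosin Myh4 (-1.75 ± 0.18), the Z-disc protein Actn3 (-1.74 ± 0.28) and the calcium pump Atp2a1 (-1.29 ± 0.28) on the log2 scale (SE, limma adjusted p between 2.48e-05 and 0.00861). The 3 markers with differences above 0 did not pass: the skeletal actin Acta1 had 0.01 ± 0.18 and the fast myosins Myh1 and Myh2 0.30 ± 0.28 and 1.00 ± 0.36. Myh2 passed as higher without knock-in replicate 2 (1.26, adjusted p = 0.0344) and with array weights (1.06, 0.0460), with adjusted p between 0.0344 and 0.186 over the alternatives. Of 6 slow fibre markers 4 were tested and 3 rose (75%, beside 14.8% of all genes called higher), while Myh7 and Myl3 were below the filter. The 3 were Tnnt1 (1.69 ± 0.42), Myl2 (1.33 ± 0.36) and Tnnc1 (1.29 ± 0.37) (limma adjusted p = 0.0160, 0.0244 and 0.0286). Slow marker signals were low, with sums from 131 to 391 in wild-type and from 427 to 1079 in knock-in. A marker this low can pass the filter through the knock-in arrays alone, a selection that favours a rise. Under the stricter filter (60th percentile) 1 slow marker rose. With wild-type replicates 1, 2 and 3 and then knock-in replicates 1, 2 and 3 left out in turn, the slow markers that rose numbered 4, 1, 0, 2, 2 and 3. Counts for lists below are given in this order of arrays left out. The part of muscle content or fibre type in the Cox7a1 difference was not tested.

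Array by array, the muscle isoforms shared their highest arrays with some of the 11 fast markers. Wild-type replicate 2 and knock-in replicate 1 were the highest arrays of their groups for Cox6a2, Cox8b, Cox7a1, Ckm, Tnnt3, Tnni2, Mylpf and Acta1. Not in this list are the fast markers Myh4, Myh1, Myh2, Actn3, Atp2a1 and Pvalb. Cox8c, known from testis, had the same highest arrays (1455167_at), with 95.9, 147 and 139.8 in wild-type, 193, 84.5 and 94.3 in knock-in and a log2 difference of -0.10 ± 0.27. The within-group standard deviation on the log2 scale lay between 0.394 and 0.431 for the 3 muscle isoforms, with a median of 0.448 for the 11 fast markers.

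The promoters of the muscle isoforms Cox7a1 and Cox8b are shown beside that of Cox8a because they set muscle against body-wide genes of the same kind of subunit. By RefSeq (GRCm38.p6) the windows are chr7:30183921-30184220 on the plus strand for Cox7a1, chr7:140900397-140900696 on the minus strand for Cox8b and chr19:7217567-7217866 on the minus strand for Cox8a. Capitals mark matches to the motifs listed above.
Cox7a1: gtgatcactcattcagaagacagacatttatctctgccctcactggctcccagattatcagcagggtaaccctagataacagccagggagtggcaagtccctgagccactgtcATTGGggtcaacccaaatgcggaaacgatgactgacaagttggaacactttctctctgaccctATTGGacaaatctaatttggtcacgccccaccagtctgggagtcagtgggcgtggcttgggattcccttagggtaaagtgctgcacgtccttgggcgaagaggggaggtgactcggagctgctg
Cox8b: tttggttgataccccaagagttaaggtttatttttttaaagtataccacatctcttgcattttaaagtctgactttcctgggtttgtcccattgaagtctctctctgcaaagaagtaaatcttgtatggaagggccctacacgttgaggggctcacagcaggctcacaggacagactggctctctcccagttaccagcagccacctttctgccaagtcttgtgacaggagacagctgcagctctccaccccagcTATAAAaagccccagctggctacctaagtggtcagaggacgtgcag
Cox8a: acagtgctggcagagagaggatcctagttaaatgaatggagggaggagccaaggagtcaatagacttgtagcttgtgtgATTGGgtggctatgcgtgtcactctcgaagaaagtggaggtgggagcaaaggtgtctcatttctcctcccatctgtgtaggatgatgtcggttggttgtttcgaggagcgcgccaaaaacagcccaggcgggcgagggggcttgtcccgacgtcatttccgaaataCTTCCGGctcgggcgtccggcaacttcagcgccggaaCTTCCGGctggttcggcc

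The Cox7a1 window held 2 matches to CCAAT, which was in 41.8% of subunit windows and 37.9% of all. The Cox8b window held 1 match to TATAAA, which was in 11.9% of subunit windows and 14.2% of all. The Cox8a window held 2 matches to CCGGAAG and 1 to CCAAT, and the Cox7a2 window held none of the marked motifs. The MEF2 motif, bound by a muscle transcription factor, was in 0 of 67 subunit windows and 0.566% of all. E-boxes, spelled CANNTG, were in 68.7% of subunit windows and 72.2% of all and are not marked.

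Other isoforms known from single tissues had low signals. The testis isoform Cox6b2 (1435275_at) gave 47.9, 52.7 and 50.9 in wild-type and 17.5, 42.7 and 39.5 in knock-in, with no overlap and a log2 difference of -0.48 ± 0.22 (limma adjusted p = 0.139). Ndufa4l2, a relative of Ndufa4 induced by hypoxia, gave 149, 238 and 146 against 159, 136 and 172, a difference of -0.15 ± 0.18. The lung isoform Cox4i2 was below the filter at means of 38.2 and 26.3, and the testis isoform Cox7b2 at 1.17 and 1.67. Among body-wide subunits of complex IV, Cox4i1 gave 3718 ± 186 and 4070 ± 40.5 (SD, n = 3) with no overlap, and Cox5b, with the largest p of the complex, 4024 ± 105 and 4012 ± 118. The brighter probe set of Cox7c was dim, at 99.1 and 81.2, with a difference of -0.25 ± 0.16.

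In complex V 1 of 17 subunits fell (5.88%, beside 16.3% of all genes called lower) and 16 did not pass. Atp5h, the d subunit of the peripheral stalk (1435112_a_at), gave 3725, 3416 and 3523 in wild-type and 2998, 2939 and 2860.3 in knock-in. The groups did not overlap, and the log2 difference was -0.28 ± 0.08 (limma adjusted p = 0.0325). A second Atp5h probe set, 1423676_at, gave 2753 and 2795, a difference of 0.02. The call was lost, and the count for complex V went to 0, when any 1 of 5 arrays was left out: wild-type replicate 1 (0.0840), wild-type replicate 3 (0.0856), and knock-in replicate 1 (0.0547), 2 (0.0776) or 3 (0.105), with adjusted p between 0.0259 and 0.320 over the alternatives.

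The catalytic subunits of complex V, Atp5a1 and Atp5b, had log2 differences of 0.13 ± 0.09 and -0.08 ± 0.09. Atp5a1 gave 3005 ± 255 and 3284 ± 38.1 (SD, n = 3), with no overlap. A second bright Atp5a1 probe set, 1449710_s_at, ran the other way with no overlap, at 2527 and 2124 (-0.25), and with the mean over probe sets Atp5a1 had -0.10. Atp5e, of the central stalk, gave 2027 ± 85.4 and 1822 ± 35.0, also with no overlap, and a difference of -0.15 ± 0.08 that did not pass. Atp5o, which joins the peripheral stalk to the catalytic head, had -0.13 ± 0.09, and -0.29 with the mean over its probe sets, where it passed (adjusted p = 0.0306, between 0.0306 and 0.572 over the alternatives). The 3 genes for the c subunit of the membrane ring, Atp5g1, Atp5g2 and Atp5g3, had -0.07, -0.04 and 0.11. Atp5d, with the largest p of the complex, gave means of 2589 and 2585.

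Genes that serve the complexes were counted in the same fit. Of 44 assembly factors tested 2 rose, 5 fell and 37 did not pass, with a median log2 difference of -0.01. Those that passed were 15.9% of the list, beside 31.2% of all genes. Cox15, an enzyme of haem A synthesis for complex IV, fell (-0.75 ± 0.14), the copper chaperone Cox17 (-0.35 ± 0.08) and Atpaf1, of complex V assembly, (-0.51 ± 0.12), while Uqcc2, of complex III assembly, rose (0.43 ± 0.08) (limma adjusted p = 0.00409, 0.0120, 0.0134 and 0.00552). Cox17 had -0.16 with the mean over its probe sets (0.228) and 0.04 without probe sets ending in _s_at or _x_at (adjusted p = 0.902, between 0.00763 and 0.902 over the alternatives). With each array left out, 2, 1, 1, 1, 1 and 1 assembly factors rose and 3, 5, 3, 3, 4 and 3 fell. Of 12 electron carriers and related genes 1 passed (8.33%, beside 31.2% of all genes), Coq2 of ubiquinone synthesis, which fell (-0.54 ± 0.10) (limma adjusted p = 0.00466).

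Of 75 genes of the mitochondrial ribosome, which makes the subunits encoded in the mitochondrial genome, 10 rose, 1 fell and 64 did not pass. Their median log2 difference was 0.10, and 14.7% passed, beside 31.2% of all genes. Mrpl17 rose (0.48 ± 0.09), Mrps34 (0.51 ± 0.12) and Mrpl52 (0.35 ± 0.08), and Mrps31 fell (-0.45 ± 0.10) (limma adjusted p = 0.00492, 0.0149, 0.0115 and 0.0102). With the mean over probe sets Mrpl17 had 0.03 (adjusted p = 0.825, between 0.00235 and 0.825 over the alternatives), and Mrpl52 (0.18) and Mrps31 (-0.37) did not pass. With each array left out, 11, 4, 3, 6, 5 and 3 ribosome genes rose. Of 21 mitochondrial import genes 4 rose, the chaperone Hspa9 (0.33), Timm10 (0.37), Timm10b (0.47) and Timm23 (0.30), and 17 did not pass. These were 19% of the list, beside 14.8% of all genes called higher. The import genes that rose numbered 8, 2, 0, 1, 0 and 3 with each array left out, and with the mean over probe sets Hspa9 (0.11) and Timm10b (0.03) did not pass.

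Enzymes that feed electrons to the chain passed in about the share of all genes, with 26.3% of the citric acid cycle list and 26.7% of the fatty acid oxidation list beside 31.2%. In the citric acid cycle and pyruvate entry 2 of 19 genes rose, 3 fell and 14 did not pass. Fh1 (fumarase) fell (-0.48 ± 0.08) and the succinyl-CoA ligase subunit Sucla2 (-0.45 ± 0.08), while Dlat, of the pyruvate dehydrogenase complex, and Suclg2 rose (0.46 ± 0.09 and 0.41 ± 0.11) (limma adjusted p = 0.00296, 0.00322, 0.00527 and 0.0182). With each array left out, 2, 2, 1, 2, 2 and 1 of these rose and 3, 2, 2, 3, 3 and 2 fell, and with the mean over probe sets Dlat (0.32) did not pass. Of 15 fatty acid oxidation genes 3 rose, Eci2 (0.75 ± 0.10), Acadvl (0.37 ± 0.10) and Acadl (0.31 ± 0.08), and 1 fell, Hadhb (-0.32 ± 0.10). Hadhb turned to 0.17 without probe sets ending in _s_at or _x_at (adjusted p = 0.153, between 0.0184 and 0.924 over the alternatives). With each array left out, 3, 3, 1, 1, 3 and 1 fatty acid oxidation genes rose and 2, 0, 0, 1, 0 and 1 fell.

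Of 9 carriers and energy transfer genes tested 33.3% passed, beside 31.2% of all genes. The muscle mitochondrial creatine kinase Ckmt2 (1428722_at) fell from 592 ± 156 to 279 ± 104 (SD, n = 3), a log2 difference of -1.08 ± 0.27 (SE, limma adjusted p = 0.0157). Its relative Ckmt1 rose (0.41 ± 0.11) and the uncoupling protein Ucp3 (0.63 ± 0.18) (limma adjusted p = 0.0253 and 0.0305), and 6 did not pass, among them the phosphate carrier Slc25a3 (0.24 ± 0.08, adjusted p = 0.0507). Slc25a3 passed as higher under 5 alternatives (offset 1, stricter filter, quantile normalization, robust prior and array weights), with adjusted p between 0.0116 and 0.795 over the alternatives. With each array left out, 1, 0, 0, 1, 0 and 1 of these genes rose and 1, 1, 1, 2, 1 and 1 fell. Of 17 regulators of mitochondrial biogenesis 2 fell (11.8%, beside 16.3% of all genes called lower) and 15 did not pass. Perm1, a regulator of oxidative metabolism in muscle, fell from 57.6 ± 10.4 to 20.3 ± 6.81 (SD, n = 3), a log2 difference of -1.03 ± 0.20, and the mitochondrial rRNA methyltransferase Tfb1m fell (-0.71 ± 0.13) (limma adjusted p = 0.00498 and 0.00415). In knock-in Perm1 lay below the array medians (37.7 to 45.8). It thus passed the filter through the wild-type arrays alone, a selection that favours a fall. Tfb1m did not pass without probe sets ending in _s_at or _x_at (-0.31, adjusted p = 0.282, between 0.00242 and 0.282 over the alternatives). The regulators that fell numbered 3, 2, 2, 2, 2 and 2 with each array left out and between 1 and 3 over all alternatives, with 1 under the stricter filter. Of the subunits encoded in the mitochondrial genome 1 was matched, ND5 of complex I, with 8170.5 ± 632 and 6146 ± 1057 and a difference of -0.42 ± 0.13 (limma adjusted p = 0.0413, between 0.00980 and 0.137 over the alternatives). Among arrays left out in turn it passed without knock-in replicate 1 alone.

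**Figure D3:**
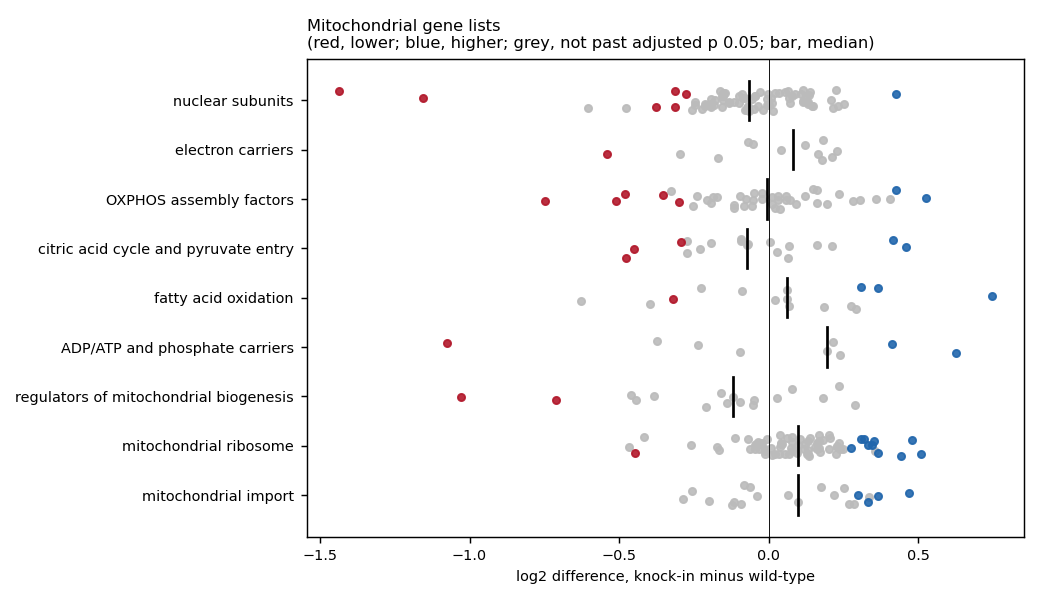
Log2 differences, knock-in minus wild-type, of the 79 nuclear subunit genes and of 8 other mitochondrial gene lists, 1 point per gene, with the median of each list as a bar. The subunits lie around their median of -0.07 with Cox7a1 and Ndufs5 apart on the left, and the ribosome and import genes both have medians of 0.10.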

How the data were processed

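Expression was measured in skin of 3 wild-type and 3 knock-in samples, 1 array each, with 45101 probe sets per array. The deposited values are MAS5 signal intensity on a linear scale, per the submitters' processing notes. Each array's trimmed mean (2% at each end) was 150.0, and array medians lay between 37.7 and 45.8. The number of arrays limits the precision.

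Genes were named from the platform annotation. Of the probe sets, 34945 had 1 symbol, 932 had several, 9160 had none and 64 were controls, and only those with 1 symbol were used. An offset of 16 was added before log2, and genes whose signal exceeded that array's median on 3 or more arrays were tested (11670). Groups were compared with limma 3.58.1 (lmFit, then eBayes with a trend of variance on mean, R 4.3.3), two-sided, with Benjamini-Hochberg adjustment and a threshold of 0.05. Standard errors and intervals come from this fit, which was tested on simulated data. It recovered 36% of simulated log2 differences of 0.5 and 82% of those of 1, and 3.07% of its calls were false. The simulation used the spread of all genes tested, not of the subunits alone. Isoform ratios were compared with an exact permutation test (scipy 1.17.1).

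The members, gene lists and tests were chosen with earlier results of these data known. Named were the muscle isoforms with their partners, all of complex II, in each complex the 4 smallest and the largest p, tissue-restricted and dim members, and up to 4 genes of each other list. Ndufv1, Ndufs1, Ndufs7, Ndufs8, Ndufa4, Ndufa1, Ndufb11, Cox4i1, Cox7c, Atp5b and Atp5g1 to Atp5g3, and Acta1, Myh1, Myh2 and Cidea among the markers, were added for their role after values were seen. The 19 alternatives changed the offset (1 or 64), the filter (none, or the 60th percentile), the normalization, the variance prior, array weights, the choice of probe sets, the replicate block, the arrays used and the X and Y genes.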

Additional observations from a re-analysis of the deposited data

How the results depend on the processing

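Of 548 values of the 29 named subunits under the 19 alternatives, 517 kept their side of the threshold, 24 lost a call, 7 gained one and none reversed a call. Sign changes numbered 28, all among subunits that passed in neither fit. After quantile normalization the subunits that fell numbered 10 and those that rose 2, with 7 lower in complex I, 1 lower in complex II and a median log2 difference of -0.0840. With array weights 2 rose and the median was -0.0502. Without probe sets ending in _s_at or _x_at the median was -0.0501. With the mean over probe sets 0 rose (limma). In complex V 0 fell with no filter and 0 with no mean-variance trend (limma). The cause of these changes was not tested. Leaving out each array in turn gave 3 to 6 subunits lower, 1 to 3 higher, 2 to 4 lower in complex I, 1 to 2 in complex IV, 0 to 1 in complex V, and a median from -0.0678 to -0.0326.

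Same-numbered samples did not deviate together (correlations of -0.25, -0.41 and -0.02). Deviations within groups of 3 cannot show whether the numbers pair the samples, so pairing stays unknown. With the replicate block 3 subunits fell and 1 rose, with 2 lower in complex I and 0 in complex V, and 2450 of all genes passed, against 3636 without the block. Dim probe sets (Ndufb4, Cox4i2, Cox7b2) allow no comparison, and a signal of 1 probe set does not separate transcript forms of a gene.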
